A study of Mus musculus with 6 samples.

Results

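The 40 genes described here encode the machinery that carries proteins between the endoplasmic reticulum (ER) and the Golgi in liver: the COPII coat and its GTPases, the scaffold of ER exit sites, the TRAPP tether with Rab1, the SNAREs, Golgi tethers, and the COPI coat with its GTPase. They were listed by name from this pathway, with no rule on their measured values but with earlier results of these data known. Each gene's value is the sum of the abundance of its transcripts. All 40 were found among the 35540 gene symbols of the table. Values are in TPM, a measure of transcript abundance that is corrected for length and scaled to a total of 1000000 per mouse. It carries no read number, so the sequencing depth and the counting error are unknown.

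Whole-liver RNA had been sequenced in littermates on a C57BL/6J background, 3 of them Alb-Cre+ and 3 Alb-Cre- (controls), all of them Surf4 fl/fl. Both genotypes carried the conditional Surf4 allele with loxP sites around exon 2, so they differed by the Cre transgene, which the Albumin promoter drives in hepatocytes. Replicate 2 was the female mouse of either genotype and the other two were males, and an age for these mice was not given in the sources used here. Surf4 encodes a cargo receptor of the ER that brings secreted proteins to COPII vesicles, and the question here is whether the mRNAs of the transport machinery itself differed once that receptor was lost.

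COPII vesicles form when PREB (Sec12), an exchange factor in the ER membrane, loads SAR1 with GTP. SAR1 recruits the SEC23-SEC24 inner coat, in which SEC24 binds cargo receptors such as SURF4, and the SEC13-SEC31 outer coat then bends the membrane. COPI vesicles, built on ARF1, return receptors and escaped ER proteins from the Golgi. In hepatocytes this route carries albumin, clotting factors and lipoproteins, and SAR1B is known for the secretion of large lipoprotein particles.

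Surf4 was lower in all 3 Alb-Cre+ mice. It was measured at 92.5, 94.5 and 92.5 TPM in the controls and at 59.0, 71.8 and 54.3 TPM in the Alb-Cre+ mice, and the groups did not overlap. The difference on the log2(TPM + 0.1) scale was -0.60 ± 0.13 (SE, limma), with a Benjamini-Hochberg adjusted p of 0.9999 over all genes tested, and the two-sided exact permutation test of 3 against 3 mice gave p = 0.1, the smallest that this design allows. The gene sum does not separate mRNA with and without exon 2, so it checks the labels only through the total.

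The hepatocyte markers Alb, Ttr, Apoa1, Serpina1c and Ass1 summed to between 80702 and 86310 TPM in controls and between 60605 and 83049 TPM in Alb-Cre+ mice, where replicate 3 was the lowest, and none of the 5 was at 0 in any mouse. Within this list, Apoa1 (18070 and 9601 TPM on average) and Ttr (4973 and 3867 TPM) were below all controls, and Alb, Serpina1c and Ass1 overlapped. Summed markers of Kupffer cells ranged from 150.4 to 401 TPM in controls and from 105 to 411 TPM in Alb-Cre+ mice, those of sinusoidal endothelium from 98.9 to 151 and from 69.3 to 173, those of stellate cells from 72.1 to 205 and from 96.6 to 197, those of cholangiocytes from 15.02 to 59.2 and from 23.3 to 39.2, and those of lymphocytes from 3.48 to 10.3 and from 3.67 to 8.47. In both genotypes the female mouse (replicate 2) had the highest Kupffer, endothelial, stellate and lymphocyte sums. The Kupffer sum was 401 and 411 TPM in the females and 105 to 173 TPM in the males. The endothelial sum was 151 and 173 TPM against 69.3 to 119 TPM, and the stellate sum 205 and 197 TPM against 72.1 to 151 TPM. Among controls the cholangiocyte sum was highest in replicate 1, a male. The stellate sum was mostly Dcn (131 TPM on average over all mice). Within that list, Col3a1 (3.69 TPM in controls and 2.67 TPM in Alb-Cre+ mice on average) was below all controls, and the other genes overlapped. Of 3 pancreatic genes, Prss1 and Cpa1 were at 0 in all 6 mice, and Cela1 was at 16.2 to 21.9 TPM. In whole liver, fewer cells of a type and less RNA per cell cannot be told apart, and the part that cell composition plays in the differences below was not tested.

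The promoter windows of the members were searched for sequence elements, which the choice of the genes had not used. Both the members and the elements were chosen with earlier results of these data known. Of 37 members with a promoter window in RefSeq (GRCm38.p6, 250 bases before to 50 bases after an annotated start), 8 held TGACGTGG on either strand (21.6%), compared with 193 of 27025 genes (0.714%) and with 107 of the 10631 genes that had a window and were tested here (1.01%). TGACGTGG is the core of the unfolded protein response element, to which ATF6 and XBP1 can bind. The 8 stretches are shown because the element recurs in genes of the COPII coat, the COPI coat, the SNAREs and the Arf cycle. Each is written 5′ to 3′ on the strand of the gene, with the element in capitals, which reads CCACGTCA where it lies on the opposite strand.
Sec16b (ER exit site scaffold), chr1:157506741-157506770: ttctgtgtggcTGACGTGGcacggcagttt
Sec23a (inner coat), chr12:59011993-59012022: ctcctccccttTGACGTGGcagaggcggca
Sec24d (inner coat), chr3:123267459-123267488: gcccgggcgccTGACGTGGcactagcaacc
Stx5a (SNARE), chr19:8741422-8741451: tggcgcagcagCCACGTCAccgagttagga
Copb1 (COPI), chr7:114254690-114254719: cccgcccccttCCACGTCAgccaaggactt
Copb2 (COPI), chr9:98563713-98563742: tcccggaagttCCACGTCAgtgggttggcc
Arf1 (Arf GTPase), chr11:59228228-59228257: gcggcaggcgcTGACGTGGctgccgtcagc
Gbf1 (Arf exchange factor), chr19:46152535-46152564: gaggctagttaCCACGTCAgtgagctgaca

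Most of these elements lay close to a transcription start. Counted with the first transcribed base as 0, they covered bases -44 to -37 at Sec16b, -28 to -21 at Copb1, -26 to -19 at Sec24d, -12 to -5 at Gbf1, -7 to 0 at Copb2, 6 to 13 at Sec23a and 9 to 16 at Stx5a, which held a second copy at 39 to 46. The single site at Arf1 fell in 2 overlapping windows, at -84 to -77 of one start and 21 to 28 of the other. The windows of Sec16b and Gbf1 were not those of their most abundant transcripts, which in GENCODE M21 start 19351 and 93530 bases downstream, whereas for the other 6 members the most abundant transcript started within 108 bases of a start used here. For Gbf1 the most abundant transcript has no annotated coding sequence and held 45.3% of its TPM, and the only coding transcript held 43.4%. A second RefSeq window of Sec16b, near the start of the transcript that carried 94.9% of its TPM, did not hold these letters.

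The shorter sequence CCACGT, part of TGACGTGG read from the other strand, was, on either strand, in the windows of 17 of 37 members (45.9%) and of 12.9% of the tested genes with a window. The ER stress response elements ERSE (CCAAT, 9 bases of any kind, CCACG) and ERSE-II (ATTGG, 1 base of any kind, CCACG), searched on both strands, were in none of the 37, against 0.188% and 0.0753% of the tested genes. In 2 lists used for comparison, TGACGTGG was in 1 of 65 windows of other ER-Golgi traffic genes (Scfd1) and in 0 of 16 windows of ER stress response genes. ERSE and ERSE-II were not counted in these 2 lists. A match of letters is a description of the window and does not show that a factor was bound there.

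**Figure D1:**
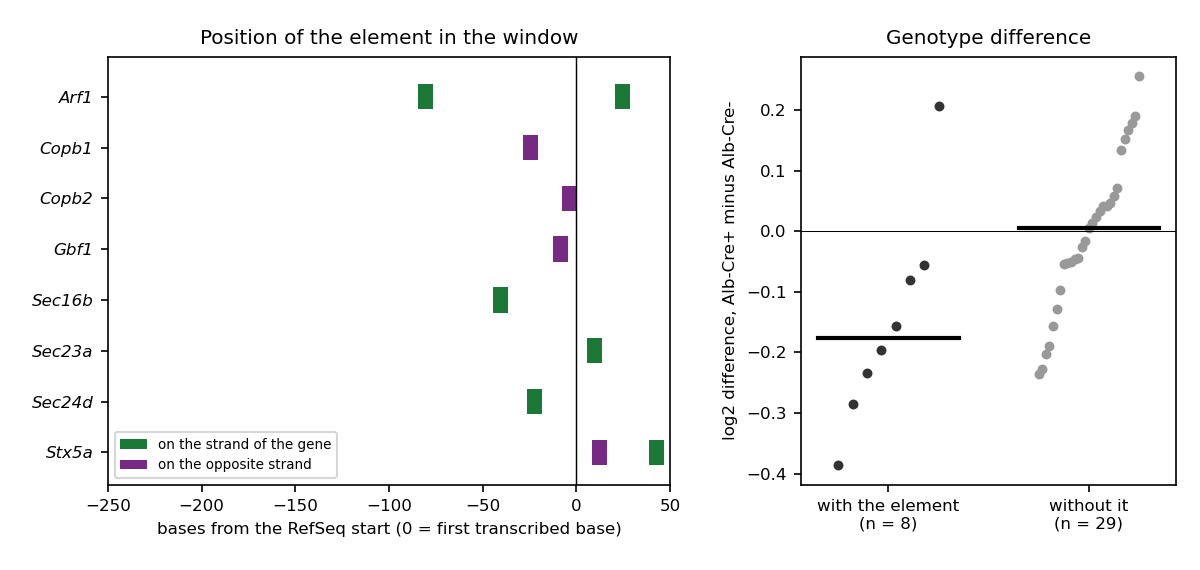
Left, position of TGACGTGG in the RefSeq promoter window of the 8 members that hold it, in bases from the annotated start, coloured by strand (the single Arf1 site is drawn once for each of its 2 windows). Right, genotype difference (log2, Alb-Cre+ minus Alb-Cre-) of these 8 members and of the 29 members whose windows lack it, with the median of each as a line. Of the 8, 7 lie below 0, among them Sec16b, which is counted by a window away from the start of its most abundant transcript.

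The module was well expressed. The median member had a mean of 32.9 TPM over the 6 mice, against 4.92 TPM for the 14189 genes tested, and 35 of 40 members reached a mean of 10 TPM. The 3 most abundant were Sar1b at 281 TPM, the COPI GTPase Arf1 at 167 TPM (17.8% of its sequence stretches of 31 bases were shared with other genes), and Mia2, a receptor-like protein of ER exit sites for bulky cargo, at 140.2 TPM, and the least abundant was the outer coat gene Sec31b at 0.765 TPM. Summed over their genes, the 7 COPI coat members stood at 339 TPM, the 6 inner COPII coat members at 123 TPM and the 3 outer coat members at 101 TPM.

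**Figure D2:**
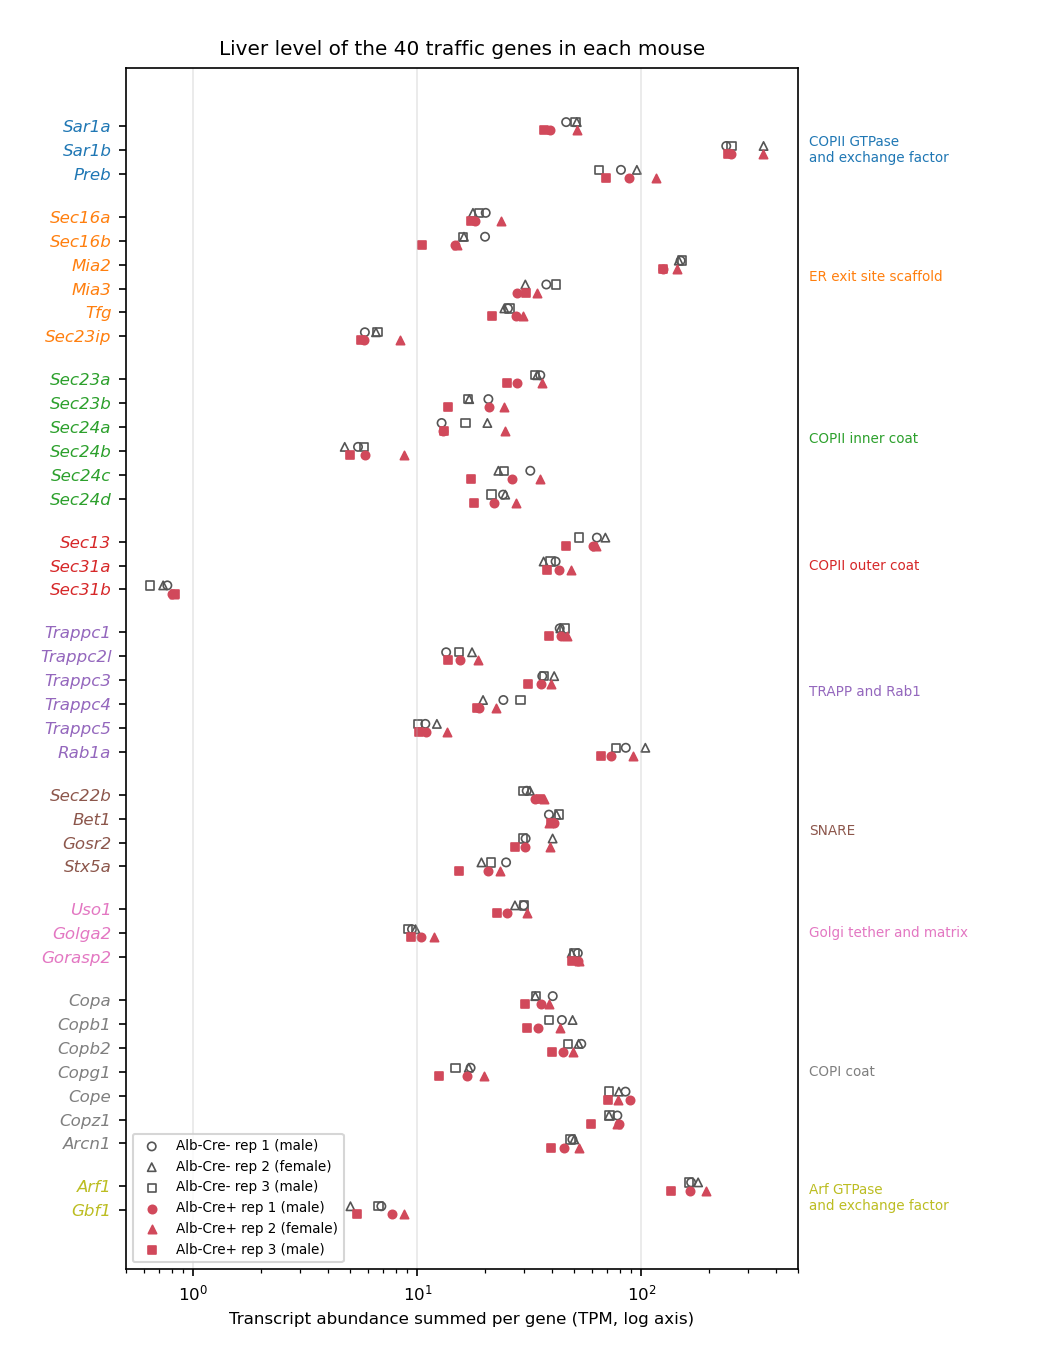
Level of each of the 40 genes in each of the 6 mice, in TPM on a log axis, with controls as open and Alb-Cre+ mice as filled symbols and the female mice as triangles; rows are grouped by role. Levels run from below 1 TPM for Sec31b to about the 350.9 TPM that Sar1b reached in the female control.

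No member passed the test between genotypes. With limma on log2(TPM + 0.1), 0 of 40 members and 0 of 14189 genes (0.0%) had an adjusted p under 0.01, and the smallest adjusted p of any gene was 0.456. Surf4, the targeted gene, did not pass either (limma adjusted p = 0.9999), so 0 calls does not show that levels were equal. The paper, with DESeq2, reported genes that passed a false discovery rate of 0.01 between these genotypes. At an unadjusted p under 0.05, 0 of 40 members stood out against 250 of all genes tested (1.76%). Among the members, 24 had a lower and 16 a higher mean in Alb-Cre+ mice, and 50.4% of all genes were lower. Differences ran from -0.39 for Sec16b to 0.26 for Sec24b with a median of -0.05, and the median of all genes tested was -0.002. The 95% confidence intervals, which included 0 for all 40 members, extended as far as -0.84 for Sec16b and 0.83 for Sec24b.

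**Figure D3:**
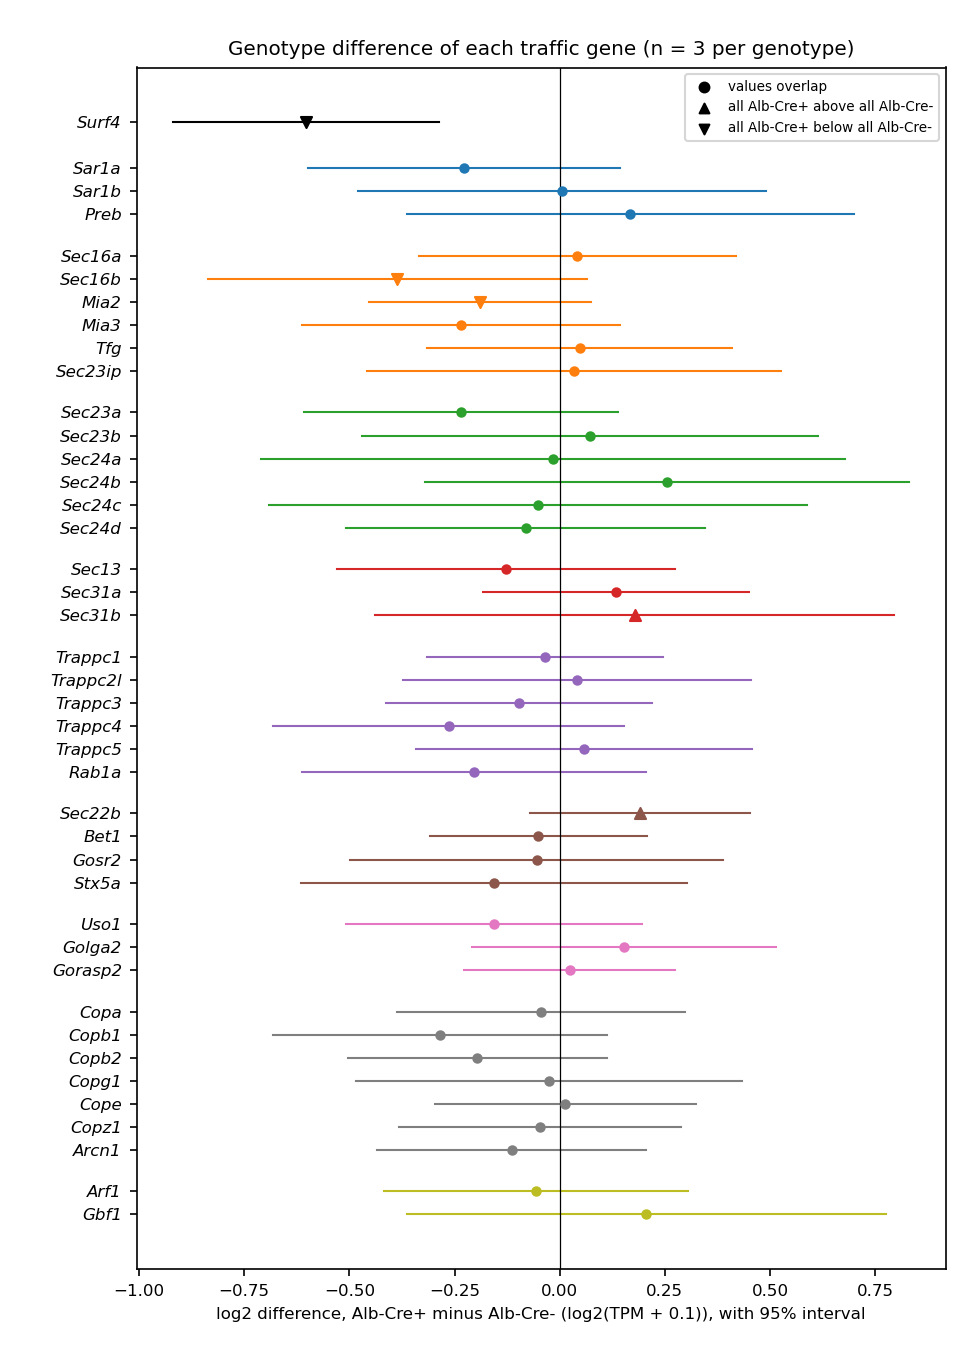
Difference between genotypes for Surf4 and the 40 members, as log2(TPM + 0.1) in Alb-Cre+ minus controls, with the 95% interval from limma; triangles mark genes whose values did not overlap between genotypes. All 40 intervals cross 0, and that of Surf4, from -0.92 to -0.29, does not.

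Part of the spread was common to most genes of a mouse. The female Alb-Cre+ mouse had the highest level of 23 members, and Alb-Cre+ replicate 3 had the lowest level of 26. Relative to each gene's mean over the 6 mice, the median member was at 0.18 in the former and at -0.25 in the latter on the log2 scale, and the median of all genes tested was at 0.25 and -0.22. After scaling by the median of ratios over genes (factors from 0.870 to 1.16), the median member lay between -0.04 and 0.06 in every mouse. The median SD of the members over the 6 mice fell from 0.20 to 0.13 on the log2 scale with this scaling, compared with 0.20 and 0.19 for the 5149 genes at a mean of 10 TPM or more.

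**Figure D4:**
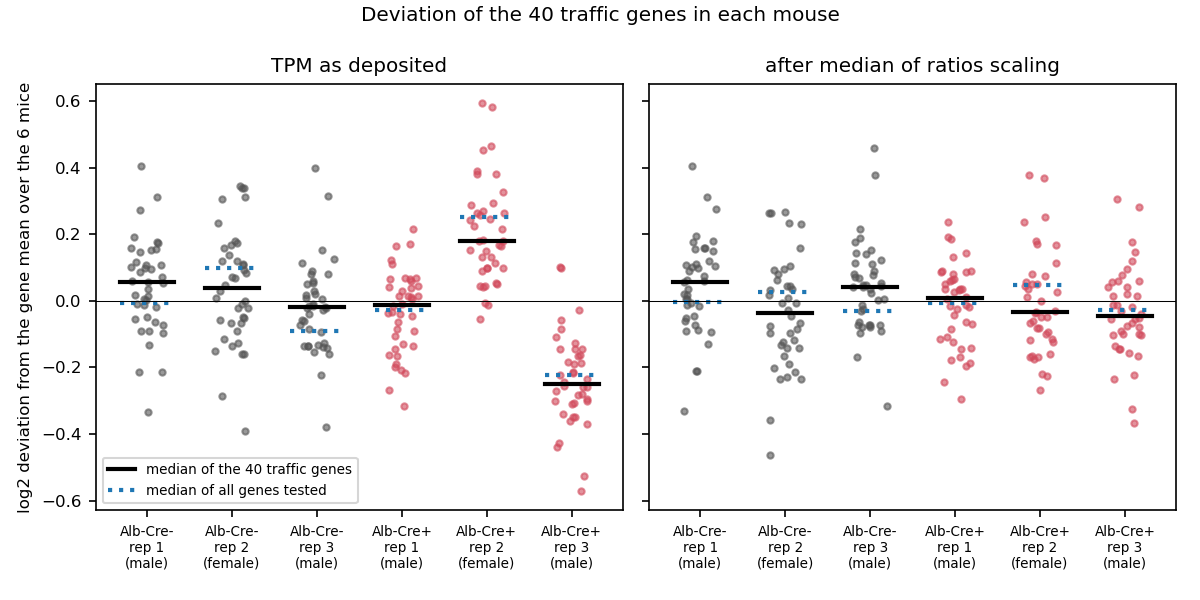
Deviation of each of the 40 members from its own mean over the 6 mice (log2), by mouse, for TPM as deposited and after median of ratios scaling. The solid line is the median member and the dotted line the median of all genes tested; as deposited, the members sit high in Alb-Cre+ replicate 2 (median 0.18) and low in Alb-Cre+ replicate 3 (-0.25).

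Scaling left the calls at 0 (0.0% of all genes) but moved the counts of genes whose groups did not overlap. As deposited, 4 of 40 members (10%) had all 3 Alb-Cre+ values on the same side of all 3 control values, against 4.9% of all genes. These were Sec16b and Mia2, which were lower (2.71% of all genes), and Sec31b and Sec22b, which were higher (2.18%). After scaling, the count was 10 of 40 (25%) against 5.84%: Sec16b, Sar1a, Sec23a, Rab1a, Copb1, Copb2 and Arcn1 were lower (2.81% of all genes), and Sec22b, Sec31a and Golga2 were higher (3.02%). Within the pairs of mice with the same number, 8 members were lower in all 3 pairs (12.4% of all genes) and 5 were higher in all 3 (11.5%), together 32.5% of the members against 23.9% of all genes.

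With the replicate number as a block, 2 of 40 members, Sec16b and Copb1, both lower, had an unadjusted p under 0.05, against 4.69% of all genes (2.42% lower), and neither passed the adjusted threshold (limma adjusted p = 0.999 for Copb1). The same 2 were below 0.05 after scaling, against 2.36% of all genes (1.26% lower), and with scaling and block together, against 5.47%. Other settings brought other members below 0.05: Copb1 alone with sex as a covariate (3.74% of all genes), Mia2 alone with the most abundant transcript of each gene (1.8%), Copb1, Sar1a and Sec23a without Alb-Cre+ replicate 2 (3.61%), and Mia3, Sar1a, Sec23a and Trappc4 in the 4 male mice (3.77%). All of these were lower, and none passed the adjusted threshold.

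In the first group by role, the GTPases that start the COPII coat, Sar1b had the highest level of the module and the same level in both genotypes within its error. Sar1b stood at 239, 351 and 252 TPM in controls and at 252, 348 and 244 TPM in Alb-Cre+ mice, a difference of 0.01 ± 0.21 (SE). The 2 female mice were the highest, with 351 and 348 TPM against 239 to 252 TPM in the 4 males, and were still higher after scaling by 0.28 on the log2 scale. Sar1a stood at 46.1, 51.5 and 50.7 TPM in controls and at 39.2, 51.8 and 36.9 TPM in Alb-Cre+ mice (-0.23 ± 0.16). As deposited its groups overlapped through the female Alb-Cre+ mouse, and after scaling they did not. Preb, the exchange factor for both, averaged 80.4 ± 15.3 TPM in controls and 91.2 ± 23.7 TPM in Alb-Cre+ mice (SD, n = 3), and its values overlapped; 19.6% of its transcript sequence, in stretches of 31 bases, was shared with other genes, mainly Abhd1.

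The 6 scaffold genes of ER exit sites included the most negative difference of any member. Sec16b (chr1:157506728-157568425, GRCm38), a relative of the scaffold protein SEC16A, stood at 20.04, 16.1 and 15.99 TPM in controls and at 14.7, 14.99 and 10.5 TPM in Alb-Cre+ mice. All 3 Alb-Cre+ mice were below all controls, with 14.99 TPM in the highest of the former and 15.99 TPM in the lowest of the latter. The difference was -0.39 ± 0.19 (limma adjusted p = 0.9999), and with the replicate block -0.39 with an unadjusted p of 0.036. Sec16a stood at 20.2, 17.7 and 18.9 TPM in controls and at 18.1, 23.5 and 17.3 TPM in Alb-Cre+ mice (0.04 ± 0.16), and its groups overlapped.

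Mia2 (chr12:59095799-59191583) stood at 149.6, 147 and 151 TPM in controls and at 125, 144 and 125 TPM in Alb-Cre+ mice. The groups did not overlap as deposited, with a difference of -0.19 ± 0.11, and they overlapped after scaling. The gene encodes a long form with a domain in the ER lumen (TALI) and short forms without it (cTAGE5). A single transcript with 1397 coding residues held between 21.6% and 25.7% of its TPM per mouse, and 11 transcripts of at most 805 residues held between 61.9% and 67.4%. The 2 classes were split by coding length alone, and the short class includes transcripts of 136 and 185 residues, so its sum is not a measured cTAGE5 level. The long form was at 32.4, 34.3 and 36.8 TPM in controls and at 28.4, 33.0 and 32.003 TPM in Alb-Cre+ mice, which overlapped, and the short forms were at 101, 94.7 and 98.4 TPM in controls and at 82.1, 91.7 and 77.3 TPM in Alb-Cre+ mice, which did not. Of the other 3 scaffold genes, Mia3 (TANGO1, the receptor for collagen-sized cargo) averaged 36.5 ± 5.68 and 30.8 ± 3.31 TPM, Tfg 25.2 ± 0.690 and 26.3 ± 4.32 TPM, and Sec23ip 6.33 ± 0.443 and 6.59 ± 1.55 TPM in controls and Alb-Cre+ mice, and all overlapped. The table lists 3 transcripts under Mia3, with annotated coding sequences of at most 268 residues, so its values may not cover the full-length message.

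Among the 6 inner coat genes, no groups were apart as deposited. Sec23a, the more abundant GTPase-activating subunit, stood at 35.4, 34.2 and 33.5 TPM in controls and at 27.7, 35.9 and 24.999 TPM in Alb-Cre+ mice (-0.23 ± 0.16). Its paralog Sec23b stood at 20.7, 17.03 and 16.9 TPM in controls and at 20.8, 24.3 and 13.7 TPM in Alb-Cre+ mice (0.07 ± 0.23). In both genes the Alb-Cre+ values spread widely, with the female mouse highest and replicate 3 lowest.

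In each of the 4 cargo adaptors, the female Alb-Cre+ mouse was the highest of the 6 mice. Sec24c stood at 31.9, 23.0 and 24.4 TPM in controls and at 26.4, 35.2 and 17.3 TPM in Alb-Cre+ mice (-0.05 ± 0.27). Sec24d stood at 24.1, 24.7 and 21.4 TPM in controls and at 22.0, 27.4 and 17.8 TPM in Alb-Cre+ mice (-0.08 ± 0.18). In both, the Alb-Cre+ mice bracketed the controls. Sec24a stood at 12.8, 20.5 and 16.4 TPM in controls and at 13.0, 24.5 and 13.1 TPM in Alb-Cre+ mice (-0.02 ± 0.29). Sec24b, the least abundant adaptor, stood at 5.43, 4.74 and 5.76 TPM in controls and at 5.85, 8.72 and 4.98 TPM in Alb-Cre+ mice (0.26 ± 0.24). Without that mouse the difference was 0.03.

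Sec24a and Sar1b are neighbours on chromosome 11, transcribed away from each other from starts that lie 53 bases apart in GENCODE M21. Both were highest in the 2 female mice: Sec24a was at 20.5 and 24.5 TPM there and at 12.8 to 16.4 TPM in the 4 males. Both female mice were above all males for 12 of 40 members (30%), against 36.6% of all genes, and for 5 of 40 after scaling (12.5%), against 22.0%. The 5 were Sar1b, Preb, Sec24a, Trappc2l and Gosr2. Sex and replicate number cannot be told apart here, since each genotype had 1 female mouse and it was replicate 2 in both. The female mice also had the highest summed Kupffer, endothelial and stellate markers, and the part that cell composition plays here was not tested.

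The outer coat was carried by Sec31a. Sec31a stood at 41.4, 36.6 and 39.2 TPM in controls and at 42.9, 48.4 and 37.9 TPM in Alb-Cre+ mice (0.13 ± 0.13), which overlapped. Sec31b (chr19:44516957-44545864) stood at 0.765, 0.733 and 0.639 TPM in controls and at 0.805, 0.823 and 0.824 TPM in Alb-Cre+ mice. Its groups did not overlap as deposited and overlapped after scaling, and the difference of 0.18 ± 0.26 was smaller than its error at this low level. Sec13, the partner of both, averaged 61.7 ± 8.27 TPM in controls and 56.6 ± 9.21 TPM in Alb-Cre+ mice.

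The TRAPP tether, which catches COPII vesicles and activates Rab1, gave no separation between genotypes as deposited. Rab1a averaged 88.7 ± 13.99 TPM in controls and 77.1 ± 13.3 TPM in Alb-Cre+ mice and was lower in all 3 pairs. The core subunits Trappc1, Trappc3, Trappc4, Trappc2l and Trappc5 had means over the 6 mice from 43.5 TPM for Trappc1 down to 11.3 TPM for Trappc5, with differences from -0.26 for Trappc4 to 0.06 for Trappc5. Trappc4 shared 24.99% of its transcript sequence with other genes, mainly Rps25, so its share of reads is uncertain.

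Of the 4 SNAREs, which fuse the vesicle with its target, only Sec22b had groups apart. Sec22b (chr3:97901190-97923276) stood at 30.7, 31.8 and 29.8 TPM in controls and at 33.6, 36.6 and 35.3 TPM in Alb-Cre+ mice. The difference was 0.19 ± 0.11 (limma adjusted p = 0.9999), it was positive in all 3 pairs, and the groups stayed apart after scaling. Between 40.4% and 50.4% of its TPM came from a transcript annotated as a target of nonsense-mediated decay, whose level was 15.4, 12.8 and 13.8 TPM in controls and 16.4, 18.4 and 17.1 TPM in Alb-Cre+ mice. The main coding transcript was at 14.9, 17.4 and 14.8 TPM in controls and at 16.1, 16.6 and 17.4 TPM in Alb-Cre+ mice. The former did not overlap between genotypes and the latter did. Bet1, Gosr2 and Stx5a had means over the 6 mice of 40.4, 32.8 and 20.8 TPM and differences of -0.05, -0.05 and -0.16.

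The Golgi tether Uso1 (p115) and the matrix proteins Gorasp2 (GRASP55) and Golga2 (GM130) overlapped between genotypes as deposited, with means of 27.6, 50.8 and 9.997 TPM. Gorasp2 was the steadiest member, with an SD of 0.05 on the log2 scale over the 6 mice, and Sec24a was the most variable, with 0.39.

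In the COPI coat, 6 of 7 subunits had a lower mean in Alb-Cre+ mice, as did 50.4% of all genes. Within the female pair, 4 of the 7 were higher. The median difference of the 7 was -0.05. The lowest was Copb1 (β-COP, chr7:114215559-114254711), at 44.2, 49.3 and 38.7 TPM in controls and at 34.6, 43.5 and 30.9 TPM in Alb-Cre+ mice. It overlapped as deposited, was lower in each of the 3 pairs, and its groups were apart after scaling. The difference was -0.28 ± 0.17 (limma adjusted p = 0.9999), and with the replicate block the unadjusted p was 0.030. Copb2 (β′-COP) was also lower in all 3 pairs, at 53.9, 52.4 and 47.0 TPM in controls and at 44.8, 49.5 and 39.8 TPM in Alb-Cre+ mice (-0.20 ± 0.13), and Arcn1 (δ-COP) averaged 49.2 ± 0.964 and 45.7 ± 6.46 TPM.

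The subunits of a coatomer complex are present in equal numbers, and their mRNAs were not at equal levels. Over the 6 mice, Cope was at 79.1 TPM and Copz1 at 73.0 TPM, the large subunits Copb2, Copb1 and Copa at 47.9, 40.2 and 35.3 TPM, and Copg1 at 16.3 TPM. With their paralogs added, Copg1 with Copg2 averaged 27.9 ± 2.03 TPM in controls and 26.1 ± 4.42 TPM in Alb-Cre+ mice, and Copz1 with Copz2 averaged 100.4 ± 3.76 and 94.6 ± 14.8 TPM. Arf1, which recruits coatomer, averaged 169.7 ± 8.34 and 165 ± 29.5 TPM, and its exchange factor Gbf1 averaged 6.21 ± 1.03 and 7.25 ± 1.72 TPM in controls and Alb-Cre+ mice. As deposited, all of these sums and genes overlapped between genotypes.

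The same was seen when the COPII subunits were added over their paralogs. Sar1 summed to 330.2 ± 63.1 TPM in controls and 324 ± 65.9 TPM in Alb-Cre+ mice, Sec23 to 52.6 ± 3.08 and 49.1 ± 10.7 TPM, Sec24 to 71.7 ± 3.34 and 72.1 ± 21.7 TPM, Sec31 to 39.8 ± 2.42 and 43.9 ± 5.24 TPM, and Sec16 to 36.3 ± 3.43 and 33.0 ± 5.37 TPM. The log2 differences of these sums ran from -0.14 for Sec16 to 0.14 for Sec31.

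The balance between paralogs was compared within each mouse, where a common shift of a library cancels. Over 10 pairs tested by an exact sign-flip permutation test on the log2 ratio, two-sided over 6 mice (smallest possible p = 0.03125), 9 had the same order in all 6 mice with p = 0.03125 and an adjusted p of 0.0347, which passed the threshold of 0.05 used for these ratios. Any pair with the same order in all 6 mice reaches this smallest p, so it restates the order and does not grade the ratios. The threshold of 0.01 used for genes could not be reached by this test. Sar1b exceeded Sar1a 6.07-fold (range over mice 4.97 to 6.81), Sec23a exceeded Sec23b 1.70-fold (1.33 to 2.00), Sec31a exceeded Sec31b 47.5-fold (41.1 to 53.2) and Sec16a exceeded Sec16b 1.27-fold (1.01 to 1.65). Among the adaptors the order was Sec24c, Sec24d, Sec24a and Sec24b, with Sec24c 1.58-fold over Sec24a and 4.38-fold over Sec24b, Sec24d 1.40-fold over Sec24a, and Sec24a 2.77-fold over Sec24b. The neighbours Sec24c and Sec24d differed 1.13-fold, with Sec24c higher in 4 of 6 mice (range 0.932 to 1.32, exact p = 0.125). No stretch of 31 bases was shared between the transcripts of any pair.

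Some of these orders rest on which transcripts are counted. Sec16a is spread over several transcript models, the largest of which held 39.97% of its TPM, and with the most abundant transcript of each gene Sec16b exceeded Sec16a, at a log2 ratio of -0.89. With coding transcripts alone, the ratios Sec16a/Sec16b (0.21) and Sec24d/Sec24a (0.27) were no longer past the threshold, and Sec24c/Sec24d (0.40) was. Coding transcripts held over 95% of the TPM of 26 members and under 80% of that of 8, among them Gbf1 (43.4%), Preb (44.1%), Sec23b (74.3%) and Sec24b (78.3%). For Golga2 the share was 36.6%, with 61.1% in a transcript that had no match in GENCODE M21 and whose type is therefore unknown.

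**Figure D5:**
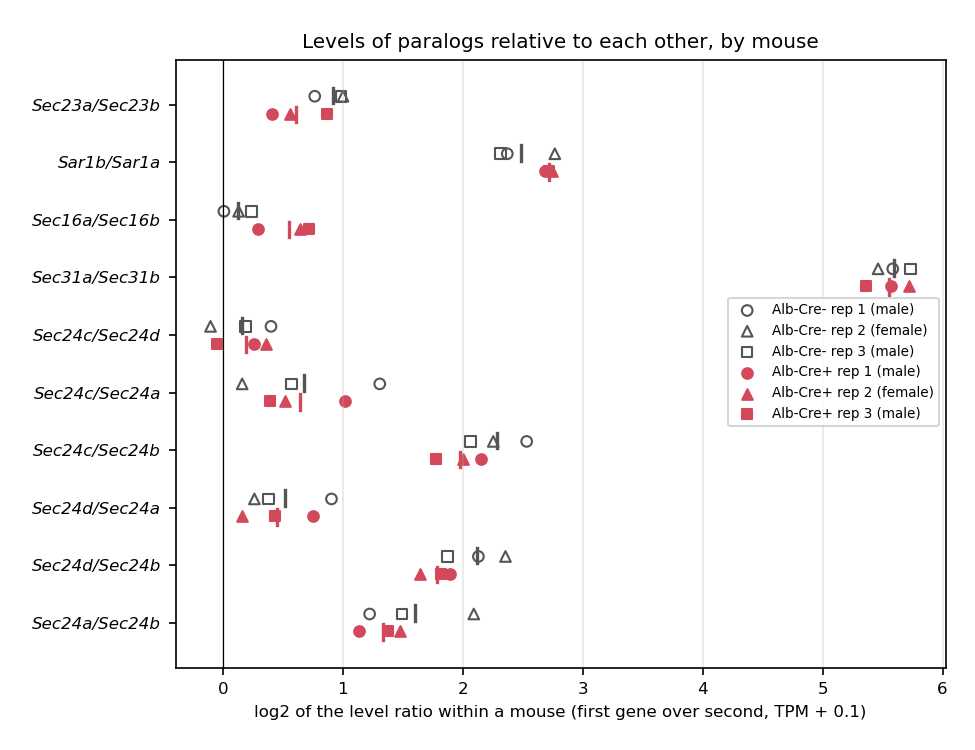
Level ratio of each paralog pair within each mouse, as log2 of the first gene over the second (TPM + 0.1), with the genotype means as vertical bars. The Alb-Cre+ values of Sec16a/Sec16b lie above all controls, and in the other 9 pairs the genotypes overlap.

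Between genotypes, 1 of the 10 ratios had groups apart. The log2 ratio of Sec16a to Sec16b was 0.01, 0.13 and 0.24 in controls and 0.30, 0.65 and 0.72 in Alb-Cre+ mice, a difference of 0.43 ± 0.15 (SE) that was positive in all 3 pairs. The exact permutation test gave p = 0.1, the smallest that 3 against 3 mice allow, and an adjusted p of 0.5 over the 10 pairs. The groups of this ratio overlapped with coding transcripts alone (difference 0.35) and with the most abundant transcript of each gene (0.34). The ratios Sec23a/Sec23b, Sec24a/Sec24b, Sec24c/Sec24b and Sec24d/Sec24b were lower in all 3 pairs, with overlapping groups. As a share of the summed Sec16 level, Sec16b was 47.8% ± 1.99 in controls and 40.5% ± 3.84 in Alb-Cre+ mice.

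Of the other ratios, Sec23a/Sec23b differed by -0.31 ± 0.15 (exact p = 0.2), and Sec23b made up 34.6% ± 2.09 of Sec23 in controls and 39.5% ± 3.83 in Alb-Cre+ mice. Sar1b made up 84.8% ± 2.14 and 86.8% ± 0.249 of Sar1. Among the Sec24 adaptors, the share of Sec24c was 36.8% ± 5.77 and 36.2% ± 3.44, that of Sec24d 32.6% ± 1.18 and 31.6% ± 2.62, that of Sec24a 23.2% ± 5.51 and 23.2% ± 3.37, and that of Sec24b 7.43% ± 0.994 and 9.05% ± 0.339. The Sec24b share was apart between genotypes, at 6.497% to 8.47% in controls and 8.70% to 9.37% in Alb-Cre+ mice, and with coding transcripts alone it was 7.23% and 7.02%.

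The 8 members whose windows held TGACGTGG had a median difference of -0.18, and 7 of the 8 were lower in Alb-Cre+ mice, as were 50.4% of all genes. The 29 members with a window that lacked it had a median difference of 0.01, and 14 were lower. As deposited, 1 of the 8 had groups that did not overlap (Sec16b, lower) and 3 of the 29 did (1 lower and 2 higher), against 4.9% of all genes. After scaling, the counts were 4 of the 8 (Sec16b, Sec23a, Copb1 and Copb2, all lower) and 5 of the 29 (2 lower and 3 higher). Among all genes, 5.84% did not overlap after scaling (2.81% lower). Sec16b, the most negative of the 8, is counted by a window 19351 bases from the start of the transcript with 94.9% of its TPM. Its window near that start lacked the element. No test was made of this contrast between members with and without the element, which was drawn up with the differences known.

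In a wider list of the same route, no gene passed the test. Of its 75 ER-Golgi traffic genes (other TRAPP, SNARE, tether, Arf and Rab genes, p24 and Yip proteins), 0 had an adjusted p under 0.01, 33 had a higher and 42 a lower mean, and the median difference was -0.02. At an unadjusted p under 0.05 there were 2 (limma, against 1.76% of all genes), and the values of 3 of the 75 did not overlap, against 4.9%. After scaling the values of 9 did not overlap (Copz2, Arf4, Arl1, Sec22c, Zw10, Pdcd6, Csnk1d, Yif1a and Yipf4), all of them lower, against 5.84% of all genes (2.81% lower). Sec22c stood at 5.13, 5.74 and 4.73 TPM in controls and at 3.07, 2.63 and 3.48 TPM in Alb-Cre+ mice (-0.75), and Yif1a was also lower (-0.25). Gorasp1 (GRASP65, the relative of Gorasp2) stood at 9.74, 9.72 and 11.5 TPM in controls and at 15.2, 13.4 and 14.1 TPM in Alb-Cre+ mice (0.46), and its groups overlapped after scaling.

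No gene passed the test in a list of 18 ER stress response genes either; Hsp90b1 and Sdf2l1 were the 2 below 0.05 without adjustment (1.76% of all genes), and with the replicate block Hspa5, Hsp90b1, Sdf2l1 and Pdia6 were, all of them higher (4.69%). The median difference was 0.17, and 13 were higher. Sdf2l1, a cofactor of the chaperone BiP, stood at 20.6, 12.4 and 24.3 TPM in controls and at 35.5, 39.1 and 26.6 TPM in Alb-Cre+ mice (0.85). The chaperone gene Hsp90b1 averaged 272 ± 19.4 and 359 ± 60.8 TPM, and Hspa5 (BiP) 341 ± 19.3 and 475 ± 142 TPM. Herpud1, of the degradation machinery, averaged 458 ± 140.0 and 327 ± 11.1 TPM. As deposited, Hsp90b1, Sdf2l1 and the disulfide isomerase gene Pdia6 were above all controls and Herpud1 was below (4.9% of all genes did not overlap), and after scaling Hspa5, Hsp90b1 and Sdf2l1 were above (5.84%).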

How the data were processed

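Liver RNA-seq of 3 Surf4 fl/fl Alb-Cre+ and 3 Surf4 fl/fl Alb-Cre- mice was used. The authors deposited TPM per transcript and mouse. The table is named as Salmon output, whereas the methods describe STAR and RSEM on GRCm38, and tool versions were not given in the sources used here. The authors' deposited table of their DESeq2 comparison was not used; it holds mean normalized counts, log2 fold changes, standard errors, the Wald statistic, p-values and adjusted p-values.

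TPM of 116748 transcripts were summed per gene symbol (35540 symbols); 163 rows without a symbol (0.0515% to 0.0887% of TPM) were left out. The 14189 genes whose mean over the 6 mice reached 0.1 TPM entered the comparison on the log2(TPM + 0.1) scale, which understates changes of low genes, with limma 3.58.1 in R 4.3.3 (genotype as the only factor, trend on mean expression) and Benjamini-Hochberg adjustment over all genes, with a threshold of 0.01. The fit was tested on simulated data drawn gene by gene, without a shift common to the genes of a mouse. That test therefore does not cover the shifts seen in these mice. Paralog ratios used exact sign-flip and permutation tests. P-values measure the spread between single livers.

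Same-numbered mice of the 2 genotypes deviated together (correlation over genes of 0.367, 0.588 and 0.370), so a fit with the replicate number as a block was an alternative, as were sex as a covariate, other pseudocounts, filters and scaling, and single transcripts. Transcripts were matched by ID without version to GENCODE M21 (GRCm38; 287 of 289 member transcripts), from which coordinates come, and promoter windows by symbol to RefSeq (37 of 40; Trappc1, Trappc4 and Arcn1 not matched). Members and lists, and the sequence elements searched, were chosen with earlier results of these data known. Full values are given for paralogs, for members whose groups did not overlap, and for those 3 of either direction that had the lowest p, with up to 4 of the most abundant as examples of a role; other genes and transcript forms that are named were chosen after their values were seen.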

Additional observations from a re-analysis of the deposited data

Results flagged for a closer look

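For 9 of the 40 members (22.5%), each male Alb-Cre+ mouse was below both male controls while the female Alb-Cre+ mouse was above the female control. The log2 difference between genotypes in the female pair minus that in male mice was 0.357 for Sar1a, 0.550 for Sec16a, 0.619 for Mia3, 0.479 for Sec23ip, 0.453 for Sec23a, 0.691 for Trappc4, 0.641 for Stx5a, 0.499 for Uso1 and 0.267 for Arcn1. Such opposite movement, in either direction, was present in 19.3% of all genes tested, and after median of ratios scaling in 6 of 40 members (15%: Mia3, Sec24d, Trappc4, Stx5a, Uso1 and Gorasp2) and 17.3% of all genes. With a sex by genotype term in limma, the lowest adjusted p of a member was 0.775, and 4 members had an unadjusted p under 0.05, against 862 of the 14189 genes. Each genotype had 1 female mouse, and the female Alb-Cre+ mouse was also the library with the highest size factor (1.16), so a difference between sexes cannot be told apart from a difference of that mouse.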

How the results depend on the processing

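No member passed an adjusted p of 0.01 under any alternative run, and the replicate block changed no call at that threshold. At an unadjusted p under 0.05 the count of members was 0, and it became 2 with the replicate block (4.69% of all genes), 2 with median of ratios scaling (2.36%) and 2 with both (5.47%), in each case Sec16b and Copb1; it was 1 with sex as a covariate (Copb1; 3.74%), 1 with the most abundant transcript (Mia2; 1.8%) and 4 in male mice only (Mia3, Sar1a, Sec23a and Trappc4, all lower; 3.77%), an alternative chosen, as was that of coding transcripts only, after seeing the data. Leaving out 1 mouse at a time gave 0 to 3 members, the 3 (Copb1, Sar1a and Sec23a, all lower) arising without Alb-Cre+ replicate 2, where 3.61% of all genes were below 0.05. The median difference of the members lay between -0.17 (without Alb-Cre+ replicate 2) and 0.075 (without Alb-Cre+ replicate 3), and that of all genes between -0.12 and 0.11 with the same 2 mice left out. Surf4 lay between -0.72 and -0.52. Among the members given in full, those that changed sign were Sec16a (-0.087 with the most abundant transcript, -0.035 with coding transcripts only, -0.14 in male mice only), Sec23b (-0.060, -0.068 and -0.15) and Sec24b (-0.12 with coding transcripts only and -0.050 in male mice only). With 1 mouse left out, differences ranged from -0.16 to 0.18 for Sar1b, from -0.094 to 0.13 for Sec16a, from -0.10 to 0.31 for Sec23b, from -0.32 to 0.15 for Sec24a, from -0.29 to 0.22 for Sec24c and from -0.24 to 0.073 for Sec24d.

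The paralog level ratio Sec16a/Sec16b reversed with the most abundant transcript (-0.89) and was 0.21 with coding transcripts only, where Sec24d/Sec24a was 0.27 and no longer past the threshold and Sec24c/Sec24d was 0.40 and past it. The genotype difference of Sec31a/Sec31b was 0.045 with a pseudocount of 1 TPM, and with coding transcripts only those of Sec24c/Sec24b, Sec24d/Sec24b and Sec24a/Sec24b were 0.068, 0.0045 and 0.11. With 1 mouse left out, the exact test of 5 mice cannot pass 0.05, and the level ratios kept their sign: 0.72 to 0.84 for Sec23a/Sec23b, 2.57 to 2.66 for Sar1b/Sar1a, 0.26 to 0.41 for Sec16a/Sec16b, 5.54 to 5.61 for Sec31a/Sec31b, 0.13 to 0.23 for Sec24c/Sec24d, 0.53 to 0.76 for Sec24c/Sec24a, 2.05 to 2.20 for Sec24c/Sec24b, 0.40 to 0.55 for Sec24d/Sec24a, 1.87 to 2.01 for Sec24d/Sec24b and 1.34 to 1.53 for Sec24a/Sec24b. The genotype differences of the ratios changed sign for Sec31a/Sec31b (-0.13 to 0.049), Sec24c/Sec24d (-0.10 to 0.15), Sec24c/Sec24a (-0.30 to 0.28) and Sec24d/Sec24a (-0.22 to 0.13). Taken within pairs, the exact test of 3 pairs cannot go below p = 0.25. The cause of these changes was not tested. Without read numbers, the depth limit of low genes such as Sec31b is unknown.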
